A study of Mus musculus with 48 samples.

Results

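Differentiated C2C12 cells that had been stretched for 3 h were compared with non-stretched differentiated cells collected at the same time. C2C12 cells are a mouse myoblast line whose cells fuse into multinucleated muscle cells when they differentiate. The cells were grown and differentiated on the flexible, collagen-coated bottom of culture plates, and the Flexcell system deformed that bottom in repeated cycles and equally in all directions of its plane, whereas the non-stretched cells stayed at rest on plates of the same kind. Both groups are of 1 cell line and differ, as far as the labels say, in stretching alone. Libraries were made from mRNA with a method that keeps the strand. The labels call the extracted molecule nuclear RNA, whereas the study's methods describe no separation of nuclei, so whether the levels are those of nuclei or of whole cells is not settled here. The comparison holds 8 of the 48 libraries of the study, taken by the stage, time and stretching in their labels: 4 of stretched cells and 4 of non-stretched cells, replicates 7 to 10 in each group. Replicates 7 and 8 carry the code B25 in their titles and replicates 9 and 10 the code B28. The labels do not say what the codes mean, and the study's methods divide the differentiated samples over independent experiments in a way that an even split by code does not match. The p-values measure the spread between these samples. By the study's methods some of the differentiated samples come from the same experiment, so the samples of a group are not all independent. All genes were tested, and 15513 of the 47480 gene symbols in the table had enough counts for the test.

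Muscle cells sense stretch through their membrane, their adhesions and their cytoskeleton. In many cell types stretch is known to activate MAP kinases, which drive a fast wave of immediate early transcription factors, and the co-activators YAP and TAZ, which act with TEAD factors on genes such as Ctgf and Cyr61. Genes of cholesterol synthesis are controlled by the factor SREBP2, which is released from the endoplasmic reticulum when sterols in its membrane run low. In time the comparison at 3 h falls between those that the study made at 1 h and 6 h.

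The libraries held between 53916927 and 77080730 counts. Expression is given as CPM, the deposited counts scaled to the effective size of each library on the usual CPM scale. Differences are log2 fold changes of stretched over non-stretched cells, tested with edgeR (quasi-likelihood, Benjamini-Hochberg adjustment over all genes). Genes were called up or down when the adjusted p-value was below 0.05 and the log2 fold change was 0.58 or more in size, which is a change of about 1.5 times. In this comparison 138 genes were called up (0.89% of those tested) and 115 were called down (0.741%). At the adjusted p-value alone, 1676 genes were higher (10.8%) and 1767 were lower (11.4%), so most differences were smaller than the fold-change threshold. The counts of list members below are to be read beside these shares, and some of them lie near the shares. The median log2 fold change of all genes tested was -0.00125. The labelled cell type was checked against its markers. Myog, the factor that drives fusion, had 886 ± 25.2 CPM (SD, n = 4) in non-stretched and 836 ± 42.3 CPM in stretched cells, and none of the 11 muscle markers passed at the adjusted p-value, with log2 fold changes from -0.085 to 0.086. Of the markers of dividing cells 4 of 4 were tested and 3 of them, Top2a, Ccnb1 and Cdk1, were higher at the adjusted p-value without being called, whereas Mki67 was at 0.13. Of the markers of other cell types, those of fat cells and endothelial cells were too low to test (0 of 3 each), 1 of 3 of leukocytes and 1 of 3 of epithelial cells could be tested, and none of these or of the 4 fibroblast markers passed the test. Bulk samples cannot tell fewer cells of a type from less RNA per cell, and the part of the dividing cells in the results was not tested.

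**Figure D1:**
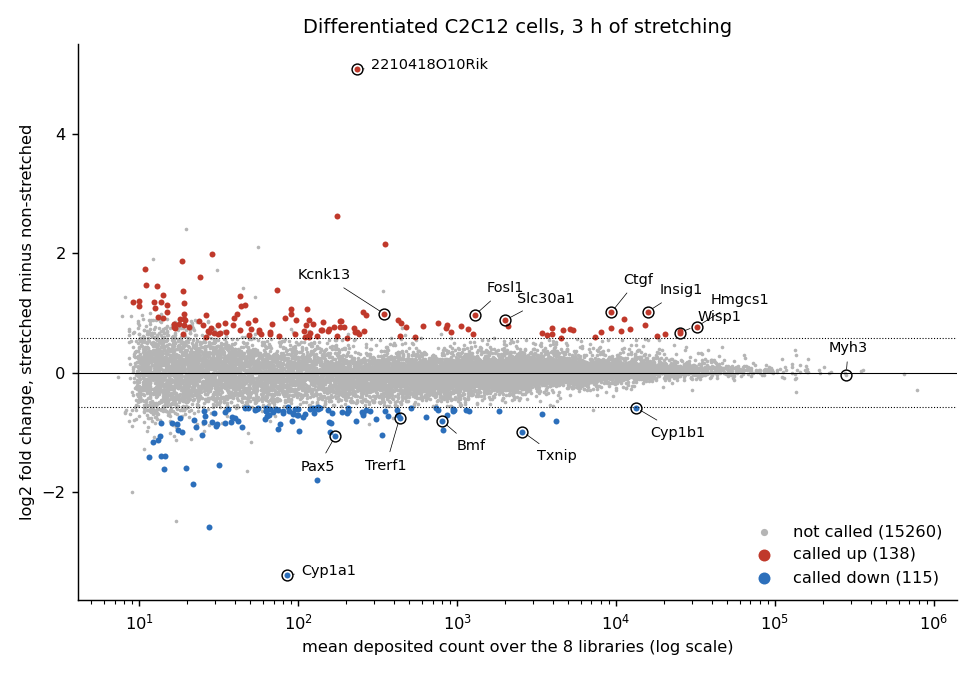
Each point is 1 of the 15513 genes tested, with its mean deposited count over the 8 libraries (horizontal, log scale) and its log2 fold change after 3 h of stretching (vertical). Red marks the 138 genes called up, blue the 115 called down and grey the rest, dotted lines stand at 0.58 and -0.58, and rings mark named genes. Among the abundant genes of the right side, the called genes are mostly red and include Insig1, Hmgcs1, Wisp1 and Ctgf.

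Low counts were common among the calls. The median of the mean count was 111 for the genes called up and 91 for those called down, against 1170 for all genes tested, and 67 of the genes called up (48.6%) and 64 of those called down (55.7%) had a mean under 100 counts, against 23.3% of the genes tested. The 4 stretched libraries lay entirely above the 4 non-stretched ones in 125 of the 138 genes called up and entirely below them in 101 of the 115 called down. Over all genes tested, the libraries were separated in this way upward in 12.6% and downward in 13.4%. Separation among the called genes largely follows from the calls, which rest on the same libraries, so it is a description.

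Enzymes of sterol synthesis were higher in the stretched cells at several steps of the pathway. Cholesterol is built from acetyl-CoA in a chain of enzymes that starts with Acat2 and Hmgcs1, passes through squalene (Sqle, Lss) and ends with the demethylation and reduction of the ring (Msmo1, Hsd17b7, Sc5d). All 21 enzymes listed were tested and all 21 had a positive log2 fold change. Of them 8 were called up, 0 were called down and 17 were higher at the adjusted p-value. The list had a median log2 fold change of 0.46, against -0.00125 for all genes. Of the 15 genes of sterol sensing and uptake 3 were called up, Insig1 and Stard4 among them, and the median of that list was 0.042.

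Before the values, the start sites of some of these genes are shown, to set the changes beside the elements that SREBP2 and its partner NF-Y are known to bind. The sequences are RefSeq promoters of the build GRCm38.p6, 250 bases before the start of transcription and 50 from it on, printed 5′ to 3′ on the strand of the gene. Capitals mark each match to the sterol regulatory element (TCACNCCAC) or to the CCAAT box (CCAAT, which reads ATTGG on the other strand), searched on both strands.
Hmgcs1 (chr13:119690101-119690400, plus strand): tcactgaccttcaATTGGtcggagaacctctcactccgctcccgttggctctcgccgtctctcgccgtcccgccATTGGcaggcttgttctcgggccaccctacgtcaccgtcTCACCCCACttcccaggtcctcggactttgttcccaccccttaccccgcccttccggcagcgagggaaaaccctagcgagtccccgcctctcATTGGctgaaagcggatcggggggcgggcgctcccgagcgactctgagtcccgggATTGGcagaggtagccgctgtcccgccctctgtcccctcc
Hsd17b7 (chr1:169969156-169969455, minus strand): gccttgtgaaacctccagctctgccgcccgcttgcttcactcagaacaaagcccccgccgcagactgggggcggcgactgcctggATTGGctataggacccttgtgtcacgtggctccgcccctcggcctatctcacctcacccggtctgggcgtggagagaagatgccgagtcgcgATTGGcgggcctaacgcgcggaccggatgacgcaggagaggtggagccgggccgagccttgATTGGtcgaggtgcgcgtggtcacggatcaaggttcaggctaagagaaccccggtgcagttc
Lss (chr10:76531355-76531654, plus strand): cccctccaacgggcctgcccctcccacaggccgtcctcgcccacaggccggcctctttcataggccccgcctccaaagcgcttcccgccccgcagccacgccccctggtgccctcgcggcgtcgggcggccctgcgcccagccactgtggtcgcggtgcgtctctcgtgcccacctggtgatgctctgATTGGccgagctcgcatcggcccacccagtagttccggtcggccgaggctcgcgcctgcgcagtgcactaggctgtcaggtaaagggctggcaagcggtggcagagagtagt
Insig1 (chr5:28071162-28071461, plus strand): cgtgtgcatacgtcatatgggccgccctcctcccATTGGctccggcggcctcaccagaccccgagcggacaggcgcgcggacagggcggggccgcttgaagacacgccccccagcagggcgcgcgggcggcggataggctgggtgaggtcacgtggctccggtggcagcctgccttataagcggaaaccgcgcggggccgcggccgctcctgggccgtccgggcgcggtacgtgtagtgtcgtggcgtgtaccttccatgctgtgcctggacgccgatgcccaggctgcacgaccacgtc
The Hmgcs1 promoter held a sterol regulatory element that starts 137 bases before the start of transcription, and 4 CCAAT boxes. Hsd17b7 held 3 CCAAT boxes, Lss held 1 and Insig1 held 1, and none of these matched the sterol element in the form searched. A RefSeq promoter was found for 16 of the 21 enzymes, and 15 of the 16 (93.8%) held a CCAAT box, against 42.7% of the promoters of 10898 genes tested. The sterol element in this strict form was found in 1 of the 16 (6.25%), against 1.39%. The promoter of Sqle was not used here.

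Hmgcs1, which makes HMG-CoA, had 324, 339, 413 and 419 CPM in the non-stretched libraries and 623, 595, 634 and 694 CPM in the stretched libraries, replicates 7 to 10 in this order, here and below. Hmgcs1 changed by 0.77 ± 0.084 on the log2 scale (SE, adjusted p = 0.00028). All 4 stretched libraries were above all 4 non-stretched ones. Sqle, the squalene epoxidase, had 206, 213, 243 and 247 CPM in the non-stretched libraries and 346, 342, 323 and 377 CPM in the stretched libraries. Sqle changed by 0.61 ± 0.065 on the log2 scale (SE, adjusted p = 0.00024). The groups did not overlap. Lss, which closes squalene epoxide into lanosterol, had 80.7, 83.4, 111 and 114 CPM in the non-stretched libraries and 150.1, 145, 159 and 169 CPM in the stretched libraries. Lss changed by 0.68 ± 0.11 on the log2 scale (SE, adjusted p = 0.00175). The ring-modifying enzymes followed the same pattern: Msmo1 changed by 0.70 ± 0.074, adjusted p = 0.000237, Hsd17b7 by 0.71 ± 0.061, adjusted p = 9.37e-05 and Sc5d by 0.63 ± 0.087, adjusted p = 0.000935. Acat2, which condenses acetyl-CoA at the head of the chain, changed by 0.60 ± 0.11, adjusted p = 0.00422. Of its 31-base stretches 43.7% are shared with other genes, so its count depends on how reads were divided. Among the 13 enzymes that were not called, Idi1 (0.55), Cyp51 (0.54) and Mvd (0.46) were closest to the threshold, and Ebp (0.044) and Tm7sf2 (0.045) were near 0.

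Insig1 had the largest change of the sterol genes. It encodes the protein that holds the SREBP escort SCAP in the endoplasmic reticulum when sterols are plentiful, and is itself a target of SREBP. It had 138, 144, 187 and 188 CPM in the non-stretched libraries and 321, 298, 338 and 380.2 CPM in the stretched libraries, about a doubling of the level, with no overlap. Insig1 changed by 1.02 ± 0.11 on the log2 scale (SE, adjusted p = 0.000237). Stard4, a carrier of cholesterol between membranes, had 61 ± 7.18 CPM (SD, n = 4) in non-stretched and 101 ± 9.64 CPM in stretched cells. Stard4 changed by 0.73 ± 0.085 on the log2 scale (SE, adjusted p = 0.000387). The regulators had smaller values. Srebf2, which encodes SREBP2, had 487, 490.1, 512 and 508 CPM in the non-stretched libraries and 557, 532, 555 and 574 CPM in the stretched libraries and was higher by 0.15 ± 0.033, adjusted p = 0.00864, below the threshold. Srebf1 was at -0.0046 ± 0.048, adjusted p = 0.96. Mylip, a ubiquitin ligase and target of the oxysterol receptor LXR, was lower without being called (-0.30 ± 0.054, adjusted p = 0.00319), and Abcg1, an LXR target that exports cholesterol, was called down with few counts (-0.62 ± 0.15, adjusted p = 0.0163) and lost its call without non-stretched replicates 7 or 8 or stretched replicate 7 (log2 fold change -0.50 at the least). Mylip fell more at 1 h (3 h minus 1 h 0.45, adjusted p = 0.00127), from 20.1 to 12 CPM on one scale for all times. Of the 9 LXR genes 0 were called up. Of the 14 genes of fatty acid synthesis, which the related SREBP1 drives, 0 were called, and 3 were higher at the adjusted p-value, namely Acly (0.25), Scd2 (0.23) and Fasn (0.43).

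**Figure D2:**
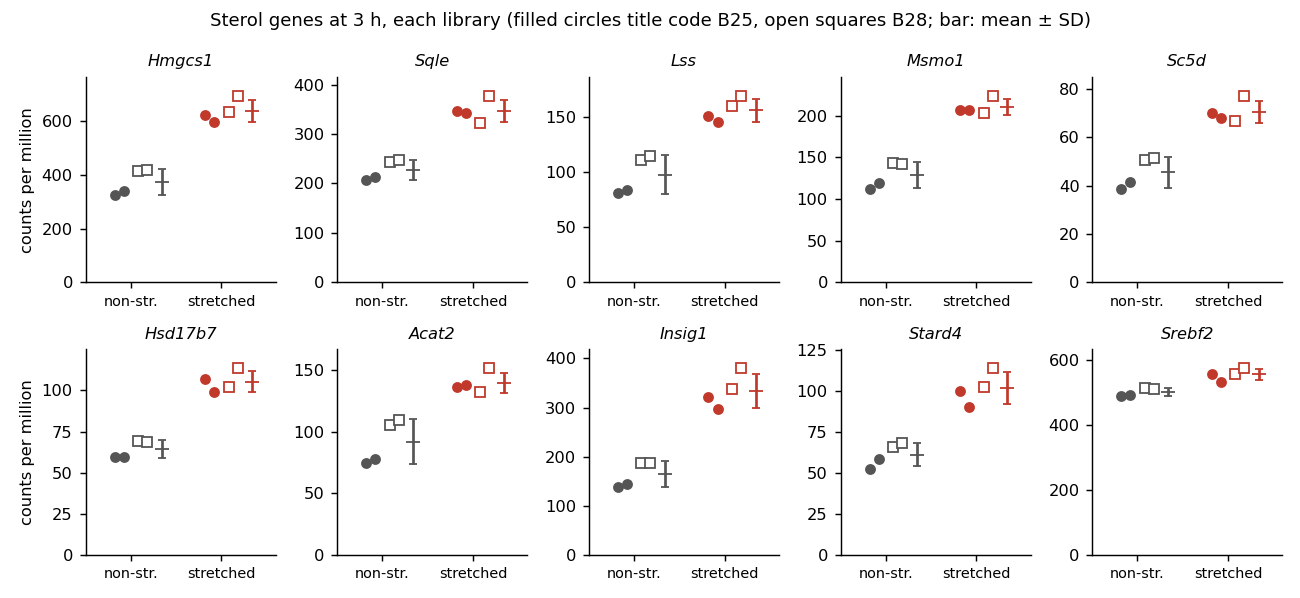
CPM of 10 sterol genes in each of the 8 libraries at 3 h, non-stretched in grey and stretched in red, with filled circles for title code B25, open squares for B28 and a bar for the mean ± SD of the 4 libraries. In the 9 genes called up the stretched libraries lie above every non-stretched one, and the B25 non-stretched libraries lie below the B28 ones, while Srebf2 in the last panel moves by 0.15 on the log2 scale.

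The log2 fold changes of the 9 called sterol genes described here were positive under both codes and differed in size for some. The non-stretched level of Lss was 80.7 and 83.4 CPM in B25 and 111 and 114 CPM in B28, and the log2 fold change was 0.84 in B25 and 0.54 in B28 (difference B28 minus B25 -0.31, adjusted p = 0.0397, a test added after the data were seen). Acat2 gave 0.85 in B25 and 0.40 in B28 (difference -0.45, adjusted p = 0.0314). For Insig1 the log2 fold change was 1.13 in B25 and 0.94 in B28 and for Hmgcs1 0.87 in B25 and 0.67 in B28, and these differences did not pass the test. With 1 library left out, between 5 and 10 of the enzymes were called, the fewest without non-stretched replicate 7. Sqle was below the threshold without non-stretched replicate 7 or stretched replicate 10 (log2 fold change 0.57 at the least), Sc5d without non-stretched replicate 7 (log2 fold change 0.56 at the least) and Acat2 without non-stretched replicates 7 or 8 or stretched replicate 10 (log2 fold change 0.52 at the least), and all 3 kept an adjusted p-value of 0.0148 or less.

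The sterol genes set 3 h apart from 1 h and not from 6 h. The effect of stretching at each time was estimated in one model of all 24 libraries of differentiated cells, in which every time has non-stretched cells of its own. Over the 21 enzymes the median log2 fold change was 0.025 at 1 h, 0.46 at 3 h and 0.512 at 6 h. Effects were more positive at 3 h than at 1 h in 10 of the 21 and more negative in 0, where 2.72% of all 16266 genes tested were more positive at 3 h and 2.43% more negative (5.15% together), and they differed from those at 6 h in 0 of the 21, where 12% of all genes did (5.05% more positive and 6.95% more negative at 3 h). Insig1 gave 0.052 ± 0.12 at 1 h, 1.02 ± 0.12 at 3 h and 0.57 ± 0.12 at 6 h (3 h minus 1 h 0.97, adjusted p = 0.000744). On one scale for all times the non-stretched level of Insig1 was 162 ± 22.4 CPM at 1 h, 165 ± 26.5 CPM at 3 h and 165 ± 21.4 CPM at 6 h (SD, n = 4). These means lay within 1 SD of each other. Hmgcs1 gave -0.026 ± 0.10, 0.77 ± 0.10 and 0.63 ± 0.10 at the same times (3 h minus 1 h 0.79, adjusted p = 0.00129), and Stard4 gave -0.091 ± 0.10, 0.73 ± 0.10 and 0.55 ± 0.10 (3 h minus 1 h 0.82, adjusted p = 0.00093).

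Some of the immediate early factors were called at 3 h, and more were higher at the adjusted p-value alone. These genes encode transcription factors that are switched on within minutes of a signal and fade quickly. Of 26 listed, 25 were tested, 3 were called up and 0 down, 10 were higher and 2 lower at the adjusted p-value, and the median was 0.194. Of all genes tested 0.89% were called up, and 10.8% were higher and 11.4% lower at the adjusted p-value. Fosl1, a Fos family member that is known to accumulate later than Fos, had 12.2, 14.4, 13.7 and 14.9 CPM in the non-stretched libraries and 24.2, 22.7, 28.3 and 32.7 CPM in the stretched libraries with no overlap. Fosl1 changed by 0.96 ± 0.11 on the log2 scale (SE, adjusted p = 0.000301). Atf3, a stress-induced repressor, had 5.81, 5.52, 5.31 and 4.96 CPM in the non-stretched libraries and 7.67, 7.11, 9.63 and 8.69 CPM in the stretched libraries. Atf3 changed by 0.62 ± 0.10 on the log2 scale (SE, adjusted p = 0.0016), with 0.38 in B25 and 0.84 in B28. In the model of all 24 libraries Atf3 changed by the same size with an adjusted p-value of 0.105. It was below the threshold without non-stretched replicate 10 or stretched replicate 9 (log2 fold change 0.53 at the least). Fosb was called at 0.77 ± 0.23, adjusted p = 0.0377 with overlapping groups, and its call was lost without non-stretched replicates 7, 8, 9 or 10 or stretched replicates 9 or 10 (adjusted p up to 0.0931). Fos itself was lower in the stretched cells, with 6.46, 6.04, 6.43 and 6.19 CPM in the non-stretched libraries and 4.94, 4.49, 4.54 and 4.21 CPM in the stretched libraries, below the threshold but with no overlap. Fos changed by -0.46 ± 0.066 on the log2 scale (SE, adjusted p = 0.00109). Egr1 was at -0.22 ± 0.10, adjusted p = 0.161, and Myc, Junb, Klf4, Srf, Maff and Ier3 were higher at the adjusted p-value by 0.45, 0.29, 0.29, 0.27, 0.35 and 0.35.

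Among these factors the effect was more negative at 3 h than at 1 h in 8 of 25 (2.43% of all genes) and more positive in 0 (2.72%). The median of the list was 0.749 at 1 h, 0.194 at 3 h and -0.141 at 6 h. Fos gave 2.76 ± 0.31 at 1 h and -0.46 ± 0.32 at 3 h (difference -3.23, adjusted p = 0.000133). Fosb gave 4.01 ± 0.33 and 0.77 ± 0.34 (difference -3.24, adjusted p = 0.000205), and Egr1 gave 1.34 ± 0.20 and -0.22 ± 0.20 (difference -1.56, adjusted p = 0.0018). The stretched group at 1 h holds a library of a further code (replicate 4, B17), and without it 1330 instead of 838 genes differed between 3 h and 1 h. Fosl1, in contrast, gave 0.79 ± 0.18, 0.96 ± 0.18 and 0.62 ± 0.19 at the 3 times, and neither difference passed the test (adjusted p = 0.834 against 1 h and 0.451 against 6 h).

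A phosphatase and an inhibitor of the ERK pathway and a ligand of the EGF receptor were upregulated. ERK is a MAP kinase that growth factor receptors activate, and its target genes include phosphatases and inhibitors that switch it off again. Of 17 such genes 2 were called up, 0 down and 6 were higher and 2 lower at the adjusted p-value (median 0.018). Dusp5, a nuclear phosphatase of ERK, had 11.7, 12.4, 15.6 and 15.5 CPM in the non-stretched libraries and 19.2, 18.7, 27.1 and 27 CPM in the stretched libraries. Dusp5 changed by 0.73 ± 0.14 on the log2 scale (SE, adjusted p = 0.00473). Errfi1, which blocks the EGF receptor, had 106, 106, 114 and 112 CPM in the non-stretched libraries and 169, 149, 204 and 213 CPM in the stretched libraries. Errfi1 changed by 0.74 ± 0.10 on the log2 scale (SE, adjusted p = 0.000636). Both were separated without overlap. Dusp6 (0.24), Dusp4 (0.41), Spry4 (0.37) and Spred2 (0.12) were higher without being called, and Dusp16 (-0.14) and Spred3 (-0.37) were lower. Of 11 EGF family genes tested, Hbegf, a ligand of the EGF receptor that is shed from the membrane, was the 1 called up, with 23.3, 22.6, 26.4 and 24.1 CPM in the non-stretched libraries and 42.4, 35.4, 44.8 and 44 CPM in the stretched libraries. Hbegf changed by 0.79 ± 0.073 on the log2 scale (SE, adjusted p = 0.000146). Ereg (0.44) and Nrg1 (0.57) were higher at the adjusted p-value, Erbb2 (-0.17) and Erbb3 (-0.24) were lower, and Egfr was at 0.12 ± 0.10, adjusted p = 0.452. Hbegf gave 0.56 ± 0.15 at 1 h, 0.79 ± 0.15 at 3 h and -0.34 ± 0.15 at 6 h, and its effect at 3 h was larger than at 6 h (difference 1.13, adjusted p = 0.00123). Errfi1 likewise gave -0.20 ± 0.21 at 6 h (difference 0.94, adjusted p = 0.0403).

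Some targets of YAP and TAZ were upregulated too. Of 18 tested, 3 were called up, 0 down, and 10 were higher and 0 lower at the adjusted p-value (median 0.198). Ctgf, a matricellular growth factor now called Ccn2, had 70.8, 64.2, 125 and 129 CPM in the non-stretched libraries and 211, 152, 185 and 235 CPM in the stretched libraries, with no overlap. Ctgf changed by 1.01 ± 0.22 on the log2 scale (SE, adjusted p = 0.00889), with 1.43 in B25 and 0.73 in B28. In the model of all 24 libraries its change was the same size with an adjusted p-value of 0.0598. Wisp1, a related secreted protein, was abundant and had 269, 264, 338 and 348 CPM in the non-stretched libraries and 451, 405, 538 and 546 CPM in the stretched libraries. Wisp1 changed by 0.67 ± 0.11 on the log2 scale (SE, adjusted p = 0.00241). Fhl2, a LIM protein that moves between adhesions and the nucleus, changed by 0.59 ± 0.10, adjusted p = 0.00248 and was below the threshold without non-stretched replicates 7 or 8 or stretched replicate 10 (log2 fold change 0.52 at the least). Cyr61 was higher by 0.31 ± 0.10, adjusted p = 0.048 with overlap, and Ankrd1, a muscle ankyrin repeat protein of the sarcomere and nucleus, had 647, 646, 605 and 595 CPM in the non-stretched libraries and 831, 780.0, 888 and 861 CPM in the stretched libraries, below the threshold with no overlap. Ankrd1 changed by 0.43 ± 0.047 on the log2 scale (SE, adjusted p = 0.000268).

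The TEAD factors bind the letters GGAATG, and the RefSeq promoter of Ankrd1 is shown because it held 2 matches, with capitals for each match on either strand.
Ankrd1 (chr19:36119795-36120094, minus strand): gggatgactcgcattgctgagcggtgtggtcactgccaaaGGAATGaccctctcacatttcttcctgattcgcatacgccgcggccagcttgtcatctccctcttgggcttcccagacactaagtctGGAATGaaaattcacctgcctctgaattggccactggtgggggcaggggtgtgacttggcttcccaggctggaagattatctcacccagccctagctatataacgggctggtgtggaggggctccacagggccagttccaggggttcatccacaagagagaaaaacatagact
The element was found in 8 of the 11 promoters of this list (72.7%), against 14.8% of the promoters of the genes tested and 13 of 80 promoters of the genes called up (16.2%). Cyr61 held 1 match. Of the 3 YAP targets called up, Fhl2 held none, and promoters of Ctgf and Wisp1 were not used here. The AP-1 site (TGANTCA), to which Fos and Jun proteins bind, was found in 13 of the 80 promoters of the genes called up (16.2%), in 5 of 84 of those called down (5.95%) and in 6.58% of the genes tested. These shares are descriptions of sequence and were not tested.

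Between the times, Wisp1 differed from Cyr61. Wisp1 gave 0.11 ± 0.12 at 1 h, 0.67 ± 0.12 at 3 h and 0.13 ± 0.12 at 6 h, and its effect at 3 h was larger than at 1 h (adjusted p = 0.0474) and than at 6 h (adjusted p = 0.0322). Cyr61 gave 1.83 ± 0.20 at 1 h and 0.31 ± 0.20 at 3 h (difference -1.52, adjusted p = 0.00174). Fhl2 and Ankrd1 had larger effects at 3 h than at 6 h (differences 0.60, adjusted p = 0.0228 and 0.57, adjusted p = 0.00585).

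**Figure D3:**
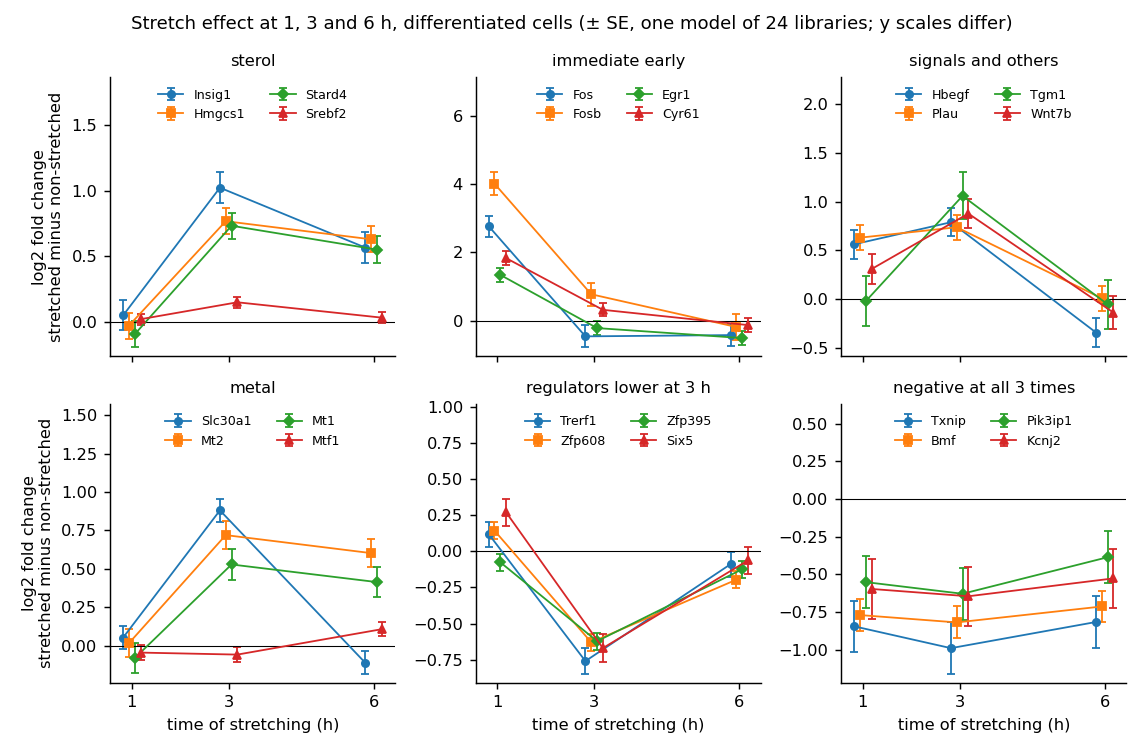
Log2 fold change of stretched over non-stretched differentiated cells at 1 h, 3 h and 6 h (horizontal, hours) for 24 genes in 6 panels, from one model of 24 libraries, with bars of 1 SE and a scale of its own in each panel. Insig1, Hmgcs1, Stard4, Mt1 and Mt2 rise between 1 h and 3 h and stay up at 6 h, Fos, Fosb, Egr1 and Cyr61 are highest at 1 h, Slc30a1 and the regulators Trerf1, Zfp608, Zfp395 and Six5 stand apart from 0 mainly at 3 h, and Txnip and Bmf are between -0.71 and -0.99 at all 3 times.

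The genes Plau, Timp3 and Adamts16 of extracellular proteolysis rose as well. Of 16 genes of plasminogen and metalloprotease control that were tested, 3 were called up, 0 down, and 6 were higher and 0 lower at the adjusted p-value (median 0.16). Plau, the urokinase that activates plasminogen, had 134, 142, 150.4 and 153 CPM in the non-stretched libraries and 241, 220.3, 236 and 269 CPM in the stretched libraries. Plau changed by 0.74 ± 0.06 on the log2 scale (SE, adjusted p = 7.27e-05), with 0.74 in B25 and 0.73 in B28. Timp3, an inhibitor of metalloproteases that binds the matrix, had 269, 251, 236 and 243 CPM in the non-stretched libraries and 424, 369, 383 and 386 CPM in the stretched libraries. Timp3 changed by 0.64 ± 0.051 on the log2 scale (SE, adjusted p = 6.3e-05). Adamts16, a secreted metalloprotease, had 4.6, 4.74, 6.17 and 6.35 CPM in the non-stretched libraries and 9.06, 6.81, 12.4 and 9.02 CPM in the stretched libraries. Adamts16 changed by 0.77 ± 0.17 on the log2 scale (SE, adjusted p = 0.00911). None of the 3 overlapped between the groups. Adamts16 had the opposite sign at the other times, -0.41 ± 0.15 at 1 h and -0.64 ± 0.16 at 6 h, and differed from both (adjusted p = 0.00162 and 0.000274). Plau and Timp3 had larger effects at 3 h than at 6 h (adjusted p = 0.00966 and 0.0283), where they were at 0.0084 ± 0.13 and -0.00095 ± 0.13.

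Of 19 secreted signals tested, 4 were called up and 3 down, counting the prostaglandin receptor Ptgfr among them. Tnfsf15, a TNF family cytokine, had 4.76, 4.27, 4.6 and 5.07 CPM in the non-stretched libraries and 8.53, 7.69, 8.92 and 9.42 CPM in the stretched libraries. Tnfsf15 changed by 0.88 ± 0.078 on the log2 scale (SE, adjusted p = 0.000115). Ccl2, which attracts monocytes, changed by 0.76 ± 0.13, adjusted p = 0.00238. Ptgs2, the inducible cyclooxygenase, had 36.8, 35, 49.1 and 44.9 CPM in the non-stretched libraries and 52.9, 46.7, 80.2 and 82.2 CPM in the stretched libraries, with overlapping groups. Ptgs2 changed by 0.66 ± 0.18 on the log2 scale (SE, adjusted p = 0.0249), and its call was lost without non-stretched replicates 7 or 8 or stretched replicates 9 or 10 (adjusted p up to 0.0694). Ptgfr, the receptor of prostaglandin F2 alpha, fell: it had 2.82, 3.58, 3.01 and 3.22 CPM in the non-stretched libraries and 1.77, 1.87, 1.8 and 1.69 CPM in the stretched libraries. Ptgfr changed by -0.82 ± 0.10 on the log2 scale (SE, adjusted p = 0.000444), with -0.82 in B25 and -0.83 in B28. The chemokines Cxcl1 (-0.60 ± 0.18, adjusted p = 0.0377) and Cxcl5 (-0.70 ± 0.19, adjusted p = 0.0249) had at most 2.33 CPM. The call of Cxcl1 was lost without non-stretched replicates 7, 8, 9 or 10 or stretched replicates 7 or 9 (adjusted p up to 0.0929) and that of Cxcl5 without non-stretched replicates 8 or 10 or stretched replicates 7 or 8 (adjusted p up to 0.0716).

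Members of the Wnt pathway moved in both directions. Wnts are secreted ligands that act through Frizzled receptors, and in muscle they are known to guide the fate of muscle precursors. Of 20 tested, 3 were called up and 3 down (median 0.121). The ligand Wnt4 had 8.7, 8.21, 11.1 and 11.5 CPM in the non-stretched libraries and 17.4, 14.3, 17.5 and 17.6 CPM in the stretched libraries. Wnt4 changed by 0.75 ± 0.11 on the log2 scale (SE, adjusted p = 0.0013). The ligand Wnt7b had few counts, with 1.46, 1.18, 1.27 and 1.28 CPM in the non-stretched libraries and 2.82, 2.08, 2.16 and 2.49 CPM in the stretched libraries. Wnt7b changed by 0.88 ± 0.13 on the log2 scale (SE, adjusted p = 0.00118). Mcc, a cytoplasmic protein that dampens Wnt signalling, had 8.1, 7.2, 6.5 and 6.35 CPM in the non-stretched libraries and 11.8, 9.8, 13.8 and 13 CPM in the stretched libraries. Mcc changed by 0.79 ± 0.11 on the log2 scale (SE, adjusted p = 0.000983). None of the 3 overlapped between the groups. On the falling side stood the secreted antagonist Dkk2 (-0.68 ± 0.17, adjusted p = 0.0163), the Dishevelled antagonist Nkd2 (-0.65 ± 0.17, adjusted p = 0.0206) and Apc2 (-0.65 ± 0.17, adjusted p = 0.0188), with values of -1.03 in B25 and -0.30 in B28 for Dkk2, -1.01 in B25 and -0.21 in B28 for Nkd2 and -0.94 in B25 and -0.30 in B28 for Apc2. The difference between the codes passed the test for Nkd2 (0.80, adjusted p = 0.0111) and not for the other two. The call of Dkk2 was lost without non-stretched replicate 8 or stretched replicate 7 (adjusted p up to 0.0516), that of Nkd2 without non-stretched replicates 7 or 8 or stretched replicates 7 or 10 (adjusted p up to 0.0583) and that of Apc2 without non-stretched replicates 7 or 8 or stretched replicates 7 or 10 (adjusted p up to 0.0554).

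Some genes best known from epithelia rose from low levels. Of 9 connexins tested, which form gap junctions between cells, 3 were called up, Gjb2 among them. Gjb2 had at most 0.766 CPM (0.83 ± 0.23, adjusted p = 0.027) and lost its call without non-stretched replicates 7 or 8 or stretched replicates 7, 8 or 10 (adjusted p up to 0.0708). Of 10 tested genes of the squamous envelope and of NADPH oxidases, 4 were called up. Tgm1, the transglutaminase that cross-links the skin envelope, had 0.927, 0.998, 0.859 and 0.871 CPM in the non-stretched libraries and 2.3, 1.98, 1.81 and 1.51 CPM in the stretched libraries. Tgm1 changed by 1.06 ± 0.14 on the log2 scale (SE, adjusted p = 0.000859). Scel, a protein of the same envelope, had 2, 1.95, 2.36 and 1.85 CPM in the non-stretched libraries and 4.19, 4.04, 3.4 and 3.16 CPM in the stretched libraries. Scel changed by 0.86 ± 0.12 on the log2 scale (SE, adjusted p = 0.000905). Duox2, a hydrogen peroxide-producing oxidase, changed by 0.71 ± 0.12, adjusted p = 0.00239, and its maturation factor Duoxa2, which lies 450 bases away on the opposite strand, changed by 1.98 ± 0.37, adjusted p = 0.00409 from at most 0.285 CPM. Of the epithelial markers, Cdh1 was at 0.12 ± 0.10, adjusted p = 0.416, and Epcam and Krt5 were too low to test. Tgm1 and Duox2 had larger effects at 3 h than at 6 h (adjusted p = 0.0391 and 0.0475), and Scel a larger one than at 1 h (adjusted p = 0.00127).

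Among channels and receptors, Kcnk13, a two-pore potassium channel, had 3.89, 3.61, 3.62 and 3.64 CPM in the non-stretched libraries and 7.8, 7.69, 6.74 and 6.94 CPM in the stretched libraries, with no overlap. Kcnk13 changed by 0.98 ± 0.071 on the log2 scale (SE, adjusted p = 4.8e-05). Kcnj2, an inward rectifier that shapes the resting potential of muscle cells, had 27.8, 28.4, 18.5 and 17.8 CPM in the non-stretched libraries and 15.4, 17.3, 13.6 and 12.8 CPM in the stretched libraries. Kcnj2 changed by -0.64 ± 0.16 on the log2 scale (SE, adjusted p = 0.0158). The B25 non-stretched libraries of Kcnj2 were the highest, and its call was lost without non-stretched replicates 7 or 8 or stretched replicate 10 (adjusted p up to 0.0506). Of 15 G protein-coupled receptors tested, 3 were called up and 2 down. The orphan receptor Gpr3 (0.82 ± 0.18, adjusted p = 0.00834), the zinc-sensing receptor Gpr39 (0.68 ± 0.12, adjusted p = 0.00322) and the protease-activated receptor F2rl1 (0.69 ± 0.14, adjusted p = 0.00504) were up, and the endothelin receptor Ednra (-0.62 ± 0.074, adjusted p = 0.000417) was down along with Ptgfr. Gpr39 was below the threshold without stretched replicate 7 (log2 fold change 0.576 at the least) and Ednra without stretched replicate 8 (log2 fold change -0.576 at the least). Gpr3 overlaps Cd164l2, which was also called up (1.46 ± 0.37, adjusted p = 0.0169), on the opposite strand. Nfatc2, a calcium-regulated transcription factor, was the 1 of 10 calcineurin and NFAT genes that was called, from 0.537 to 0.758 CPM in the non-stretched libraries to between 1.07 and 2.40 CPM in the stretched ones (log2 fold change 1.38 ± 0.26 (SE), adjusted p = 0.00422). It gave -0.75 ± 0.22 at 6 h, and the effects at 3 h and 6 h differed by 2.14, adjusted p = 0.000103.

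Of the genes of zinc handling, Slc30a1 and Mt2 rose at 3 h. Slc30a1 encodes the transporter ZnT1, which moves zinc out of the cell, and the metallothioneins Mt1 and Mt2 bind zinc inside it. All 3 are known targets of the zinc-sensing factor MTF1, which binds metal response elements. Slc30a1 had 23.3, 23.4, 21.4 and 21.3 CPM in the non-stretched libraries and 40.5, 37.7, 43.2 and 43.3 CPM in the stretched libraries, with no overlap. Slc30a1 changed by 0.88 ± 0.053 on the log2 scale (SE, adjusted p = 1.51e-05). Mt2 had 54.7, 52.6, 56.2 and 57 CPM in the non-stretched libraries and 97.1, 92.2, 77.4 and 97 CPM in the stretched libraries. Mt2 changed by 0.72 ± 0.065 on the log2 scale (SE, adjusted p = 0.000126). Mt1 had 81.4, 78.1, 75.9 and 78.6 CPM in the non-stretched libraries and 123, 118, 97.9 and 115 CPM in the stretched libraries, just under the threshold. Mt1 changed by 0.53 ± 0.06 on the log2 scale (SE, adjusted p = 0.000353). Mtf1 itself was at -0.055 ± 0.039, adjusted p = 0.356. Of the 13 zinc genes tested, 2 were called up and 0 down, 3 were higher and 1 lower at the adjusted p-value, and the median was 0.026. The promoters of the called genes are shown with capitals for matches to a strict form of the core of the metal response element. The form was TGCGCNC, on either strand, and other forms of the core were not searched.
Slc30a1 (chr1:191906531-191906830, plus strand): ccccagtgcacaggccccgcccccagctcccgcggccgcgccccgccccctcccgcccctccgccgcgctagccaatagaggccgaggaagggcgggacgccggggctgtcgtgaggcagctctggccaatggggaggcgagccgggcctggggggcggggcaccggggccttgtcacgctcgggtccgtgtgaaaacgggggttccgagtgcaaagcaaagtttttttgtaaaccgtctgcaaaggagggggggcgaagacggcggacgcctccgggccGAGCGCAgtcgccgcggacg
Mt2 (chr8:94172368-94172667, plus strand): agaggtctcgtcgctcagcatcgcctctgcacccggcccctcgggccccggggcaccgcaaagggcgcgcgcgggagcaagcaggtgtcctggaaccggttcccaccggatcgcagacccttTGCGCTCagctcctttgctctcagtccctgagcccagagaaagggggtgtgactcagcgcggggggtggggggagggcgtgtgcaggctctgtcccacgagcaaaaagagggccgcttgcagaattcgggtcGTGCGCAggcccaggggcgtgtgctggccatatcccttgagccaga
Slc30a1 held 1 match to this strict form and Mt2 held 2. At least 1 was found in 6 of the 12 promoters of this list (50%), against 29.8% of the promoters of the genes tested. Slc30a1 and the metallothioneins differed in time. Slc30a1 gave 0.055 ± 0.074 at 1 h, 0.88 ± 0.073 at 3 h and -0.11 ± 0.074 at 6 h and differed from both (adjusted p = 5.04e-05 and 1.68e-05), with stretched levels of 24.7 ± 2.79, 41.4 ± 2.68 and 20.3 ± 1.4 CPM (SD, n = 4). Mt2 gave 0.60 ± 0.091 at 6 h, which did not differ from 3 h at the threshold (adjusted p = 0.634).

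Slc20a1, a sodium-dependent phosphate transporter, was among the 12 largest increases of genes with a mean of 100 or more counts and no overlap between the groups, and had 110.0, 109, 141 and 132 CPM in the non-stretched libraries and 216, 189, 262 and 249 CPM in the stretched libraries. Slc20a1 changed by 0.90 ± 0.11 on the log2 scale (SE, adjusted p = 0.000457). Its effect at 3 h was larger than at 1 h (adjusted p = 0.0482) and at 6 h (adjusted p = 0.0271). Ciart, a repressor of the circadian clock, was called up (0.87 ± 0.15, adjusted p = 0.0026, 20.8% of its 31-base stretches shared with other genes), and Arntl2, a clock activator, was called down (-0.61 ± 0.13, adjusted p = 0.00727), although not without non-stretched replicates 8 or 9 or stretched replicates 7 or 10 (log2 fold change -0.55 at the least). Of the list, 9 of the 17 clock genes were higher and 5 lower at the adjusted p-value.

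Among the genes that fell, several restrain glucose uptake, growth or survival in the textbook view. Txnip, which binds thioredoxin and limits glucose uptake, had 58.9, 58, 49.6 and 50 CPM in the non-stretched libraries and 31.1, 30.4, 26.6 and 20.7 CPM in the stretched libraries, about a halving, with no overlap. Txnip changed by -0.99 ± 0.11 on the log2 scale (SE, adjusted p = 0.00032). Bmf, a pro-apoptotic BCL2 family protein that is tethered to the cytoskeleton, had 16.9, 16, 16 and 16.3 CPM in the non-stretched libraries and 9.74, 9.73, 8.85 and 8.63 CPM in the stretched libraries, and the spread within each group was small. Bmf changed by -0.82 ± 0.052 on the log2 scale (SE, adjusted p = 2.16e-05). Pik3ip1, an inhibitor of PI3 kinase and a FoxO target, had 15.2, 14.8, 14.5 and 13.7 CPM in the non-stretched libraries and 9.38, 10.4, 9.55 and 8.34 CPM in the stretched libraries. Pik3ip1 changed by -0.63 ± 0.065 on the log2 scale (SE, adjusted p = 0.000223), and was just below the threshold without stretched replicate 10 (log2 fold change -0.57 at the least). Ppp1r3c, which targets a phosphatase to glycogen, changed by -0.98 ± 0.17, adjusted p = 0.00237, and Ddit4l, an inhibitor of mTOR signalling, by -0.73 ± 0.14, adjusted p = 0.0046. The other members of these lists were mostly not called. Of 12 genes of glucose sensing and glycogen 2 were called down, of 18 FoxO and atrophy genes 2 were called down and 7 were lower at the adjusted p-value, and of 14 BCL2 genes Bmf was the 1 called. The muscle ubiquitin ligases Fbxo32 (-0.10 ± 0.053, adjusted p = 0.225) and Trim63 (0.061 ± 0.031, adjusted p = 0.181), markers of atrophy, did not pass the test. Txnip and Bmf were lower at the other times too: Txnip gave -0.84 ± 0.17 at 1 h and -0.82 ± 0.17 at 6 h, and Bmf gave -0.77 ± 0.11 and -0.71 ± 0.11, and no difference from 3 h passed the test (the smallest adjusted p was 0.722 for Txnip and 0.728 for Bmf).

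Several genes of innate immunity fell. Of 23 genes of the interferon response, 4 were called down and 0 up, 9 were lower and 0 higher at the adjusted p-value, 18 had a negative log2 fold change, and the median was -0.127. Irgm2, an interferon-induced GTPase, had 1.62, 1.35, 1.76 and 1.53 CPM in the non-stretched libraries and 0.782, 0.863, 0.966 and 0.819 CPM in the stretched libraries. Irgm2 changed by -0.86 ± 0.13 on the log2 scale (SE, adjusted p = 0.00147). Cd274, which encodes the checkpoint ligand PD-L1, had at most 0.665 CPM in any library (log2 fold change -0.87 ± 0.17 (SE), adjusted p = 0.00559). Parp14 (-0.59 ± 0.16, adjusted p = 0.0236) and the antibody receptor Trim21 (-0.61 ± 0.16, adjusted p = 0.0207) were also called. The call of Parp14 was lost without non-stretched replicates 8 or 10 or stretched replicates 7 or 8 (adjusted p up to 0.0646) and that of Trim21 without non-stretched replicate 8 or stretched replicate 7 (adjusted p up to 0.0586). The factor Stat2 (-0.26) was lower without being called. Of 12 genes of NF-kappaB and innate sensing 2 were called down and 0 up: Nod2, a sensor of bacterial wall fragments, had 3.62, 3.44, 3.9 and 3.69 CPM in the non-stretched libraries and 2.17, 2.33, 2.24 and 2.51 CPM in the stretched libraries. Nod2 changed by -0.67 ± 0.083 on the log2 scale (SE, adjusted p = 0.000524). The kinase gene Ikbke had 4.71, 4.67, 5.78 and 4.82 CPM in the non-stretched libraries and 2.6, 3.45, 2.95 and 3.22 CPM in the stretched libraries. Ikbke changed by -0.71 ± 0.11 on the log2 scale (SE, adjusted p = 0.00127). Cd274, Nod2 and Ikbke had more negative effects at 3 h than at 6 h (adjusted p = 0.00199, 0.00357 and 0.028).

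Several transcription regulators fell at 3 h. Trerf1, a zinc finger regulator, had 8.61, 8.16, 9.04 and 8.64 CPM in the non-stretched libraries and 4.75, 5.07, 5.43 and 5.1 CPM in the stretched libraries, with no overlap. Trerf1 changed by -0.76 ± 0.061 on the log2 scale (SE, adjusted p = 7.27e-05). Zfp608 had 23.1, 23.1, 20.7 and 20.3 CPM in the non-stretched libraries and 13.9, 14.5, 14.4 and 13.6 CPM in the stretched libraries. Zfp608 changed by -0.63 ± 0.053 on the log2 scale (SE, adjusted p = 9.24e-05). For Zfp395 the value was -0.62 ± 0.048, adjusted p = 5.23e-05. Arid5b (-0.69 ± 0.065, adjusted p = 0.000146) and Trps1 (-0.65 ± 0.095, adjusted p = 0.00122), both abundant DNA-binding proteins, were singled out after their values were seen, as was the centriole protein gene Spice1 (-0.75 ± 0.057, adjusted p = 5.23e-05). Trps1 was just below the threshold without non-stretched replicate 7 (log2 fold change -0.57 at the least). Six5, a homeobox factor of muscle, had 3.96, 3.56, 4.28 and 3.89 CPM in the non-stretched libraries and 2.49, 2.86, 2.38 and 2.12 CPM in the stretched libraries. Six5 changed by -0.67 ± 0.10 on the log2 scale (SE, adjusted p = 0.00148). Of 302 numbered Zfp genes tested, 0 were called up and 5 down, namely Zfp395, Zfp608, Zfp934, Zfp467 and Zfp808, 26 were higher and 77 lower at the adjusted p-value, 218 had a negative log2 fold change, and the median was -0.095. The last 3 of the 5 had a mean of 65 counts or fewer. The call of Zfp934 was lost without non-stretched replicates 7 or 10 or stretched replicates 7 or 10 (adjusted p up to 0.0721), that of Zfp467 without non-stretched replicates 9 or 10 or stretched replicates 7, 8 or 9 (adjusted p up to 0.0832) and that of Zfp808 without non-stretched replicates 8, 9 or 10 or stretched replicates 7, 8, 9 or 10 (adjusted p up to 0.123). Of 19 Hox genes, 1 was called down, Hoxa13 (-0.65 ± 0.14, adjusted p = 0.00727), 10 were lower and 0 higher at the adjusted p-value, 17 were negative, and the median was -0.247. Hoxa13 was below the threshold without non-stretched replicate 7 (log2 fold change -0.57 at the least). Pax5, a factor known from B cells, was among the largest decreases, with 4.33, 4.42, 2.96 and 3.03 CPM in the non-stretched libraries and 1.53, 1.65, 2.2 and 1.6 CPM in the stretched libraries. Pax5 changed by -1.06 ± 0.17 on the log2 scale (SE, adjusted p = 0.00185).

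The effects on these regulators were set against those at the other times. Trerf1 gave 0.12 ± 0.086 at 1 h, -0.76 ± 0.089 at 3 h and -0.089 ± 0.087 at 6 h and differed from both (adjusted p = 0.000166 and 0.00125). Zfp608 gave 0.14 ± 0.058, -0.63 ± 0.059 and -0.20 ± 0.058 (adjusted p = 7.62e-06 and 0.00153). The non-stretched level of Trerf1 was 8.81 ± 0.785, 8.66 ± 0.332 and 8.75 ± 0.422 CPM at the 3 times, and the stretched level was 9.6 ± 1.51, 5.11 ± 0.277 and 8.23 ± 0.578 CPM (SD, n = 4). Six5, Zfp395, Arid5b, Trps1, Spice1, Pax5 and Proser3 differed from both times as well. In all, 17 of the 138 genes called up and 24 of the 115 called down had an effect that differed from both 1 h and 6 h, in each case a larger one at 3 h. These genes were chosen by their effect at 3 h, and that choice favours a larger value at 3 h, so the counts are a description. Of the genes called up, 36 differed from 1 h and 55 from 6 h, and of those called down 35 and 41.

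Heat shock genes set 3 h apart from 6 h. At 3 h 0 of 11 chaperone and co-chaperone genes were called (median 0.019, log2 fold changes from -0.238 to 0.137), and the effect was more negative at 3 h than at 6 h in 10 of 11 (6.95% of all genes), with a median of 0.531 at 6 h. Of 15 genes of endoplasmic reticulum stress 0 were called and 6 were higher at the adjusted p-value at 3 h (median 0.146), and 4 had a larger effect at 6 h.

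Several targets of the aryl hydrocarbon receptor differed between the codes. This receptor senses dioxin-like chemicals and tryptophan metabolites, and it drives the cytochromes Cyp1a1 and Cyp1b1 and its own repressor Ahrr. All 3 were called down. Cyp1a1 had 3.73, 5.15, 0.706 and 0.758 CPM in the non-stretched libraries and 0.0478, 0.112, 0.437 and 0.354 CPM in the stretched libraries. Cyp1a1 changed by -3.39 ± 0.78 on the log2 scale (SE, adjusted p = 0.0109). Ahrr had 8.93, 9.76, 5.14 and 5.14 CPM in the non-stretched libraries and 2.63, 1.93, 5.09 and 4.21 CPM in the stretched libraries. Ahrr changed by -1.05 ± 0.30 on the log2 scale (SE, adjusted p = 0.0297). Cyp1b1 had 300.4, 304, 203 and 208 CPM in the non-stretched libraries and 133, 131, 214 and 197 CPM in the stretched libraries. Cyp1b1 changed by -0.59 ± 0.19 on the log2 scale (SE, adjusted p = 0.0437). In each gene the B25 non-stretched libraries were the highest of the 8 and the B25 stretched libraries the lowest, and the B28 libraries lay between them. Within the codes the log2 fold changes were -5.77 in B25 and -0.87 in B28 for Cyp1a1, -2.04 in B25 and -0.13 in B28 for Ahrr and -1.20 in B25 and 0.0013 in B28 for Cyp1b1. The B25 value of Cyp1a1 rests on 3 and 7 counts in the stretched libraries. The difference between the codes passed a test over all 15513 genes that was added after the data were seen: 4.90 ± 0.48 (SE, adjusted p = 0.00398) for Cyp1a1, 1.90 ± 0.19 (adjusted p = 0.00398) for Ahrr, 1.19 ± 0.058 (adjusted p = 9.71e-06) for Cyp1b1, the smallest adjusted p of all genes, and 0.53 (adjusted p = 0.0111) for Tiparp, another target. In all 76 genes passed, and 6 of them were among the 253 calls. The spread in this test is that between libraries of the same code and group, which may come from the same experiment. Nqo1 (-1.13 in B25 and 0.0019 in B28) and Aldh3a1 (-1.48 in B25 and -0.11 in B28), which is an oxidizing enzyme of the same battery and was named after its values were seen, had differences between the codes that did not pass (adjusted p = 0.0665 and 0.0504). The receptor Ahr (0.056 ± 0.049, adjusted p = 0.459) and its partner Arnt (-0.043 ± 0.027, adjusted p = 0.294) did not pass the test between stretched and non-stretched cells.

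The higher non-stretched level of Ahrr in B25 was seen at 1 h and 6 h too. Whether the effect of stretching varied with time within a code was not tested, and B28 has a single stretched library at 1 h. On one scale for all 24 libraries, Ahrr in non-stretched B25 libraries was 7.6 and 9.41 CPM at 1 h, 9 and 9.85 CPM at 3 h and 8.67 and 8.31 CPM at 6 h, and in non-stretched B28 libraries between 4.22 and 5.3 CPM at these times. In stretched B25 libraries it was 8.55 and 8.63 CPM at 1 h, 2.65 and 1.94 CPM at 3 h and 2.34 and 2.41 CPM at 6 h. In stretched B28 libraries it was 6.97 CPM at 1 h (replicate 9), 5.13 and 4.22 CPM at 3 h and 3.72 and 3.9 CPM at 6 h. Cyp1b1 in B28 at 6 h had 171 and 223 CPM in non-stretched and 154 and 148 CPM in stretched libraries. Ahrr lost its call without non-stretched replicates 7 or 8 or stretched replicates 7 or 8 (adjusted p up to 0.0864), Cyp1b1 without non-stretched replicates 7 or 8 or stretched replicates 7, 8 or 10 (adjusted p up to 0.12) and Aldh3a1 without non-stretched replicates 7 or 8 or stretched replicates 7, 8 or 10 (adjusted p up to 0.105). Features of the cultures that go with the codes cannot be told apart.

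**Figure D4:**
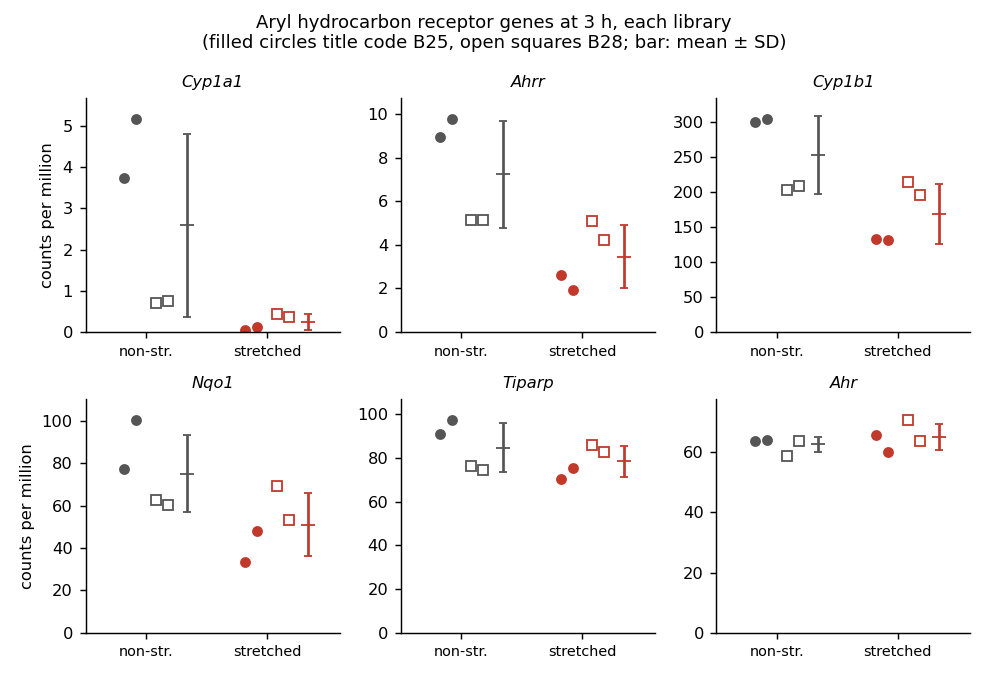
CPM of 6 genes of the aryl hydrocarbon receptor in each of the 8 libraries at 3 h, non-stretched in grey and stretched in red, with filled circles for title code B25, open squares for B28 and a bar for the mean ± SD of the 4 libraries. For Cyp1b1 the circles move from 300.4 and 304 to 133 and 131 CPM, while the squares stay between 197 and 214 CPM.

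None of the sarcomere genes listed passed the test at 3 h. Of 30 sarcomere genes tested, which encode the myosins, actins, troponins and their partners, 0 were called, 0 differed at the adjusted p-value and the log2 fold changes ran from -0.162 to 0.169 (median 0.013). Acta1, the skeletal actin, was at -0.015 ± 0.048, adjusted p = 0.854 and the embryonic myosin Myh3 at -0.036 ± 0.052, adjusted p = 0.67, each with between 4119 and 4852 CPM in every library. Ttn, the titin gene, varied between 1675 and 6905 CPM within the groups, so only a large change of this gene could have been detected. Of 13 myogenic factors tested 2 were called down, Six5 and Mamstr, a co-activator of MEF2 (-0.59 ± 0.14, adjusted p = 0.0118), and Myog was at -0.085 ± 0.041, adjusted p = 0.173. Mamstr was below the threshold without non-stretched replicate 8 or stretched replicates 7 or 10 (log2 fold change -0.47 at the least). Of 10 SR protein genes tested, which guide splicing, 0 were called, but 4 were higher at the adjusted p-value, namely Srsf2 (0.46), Srsf3 (0.32), Srsf5 (0.55) and Srsf6 (0.37), and Srsf4 was at -0.0026 ± 0.04, adjusted p = 0.973.

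**Figure D5:**
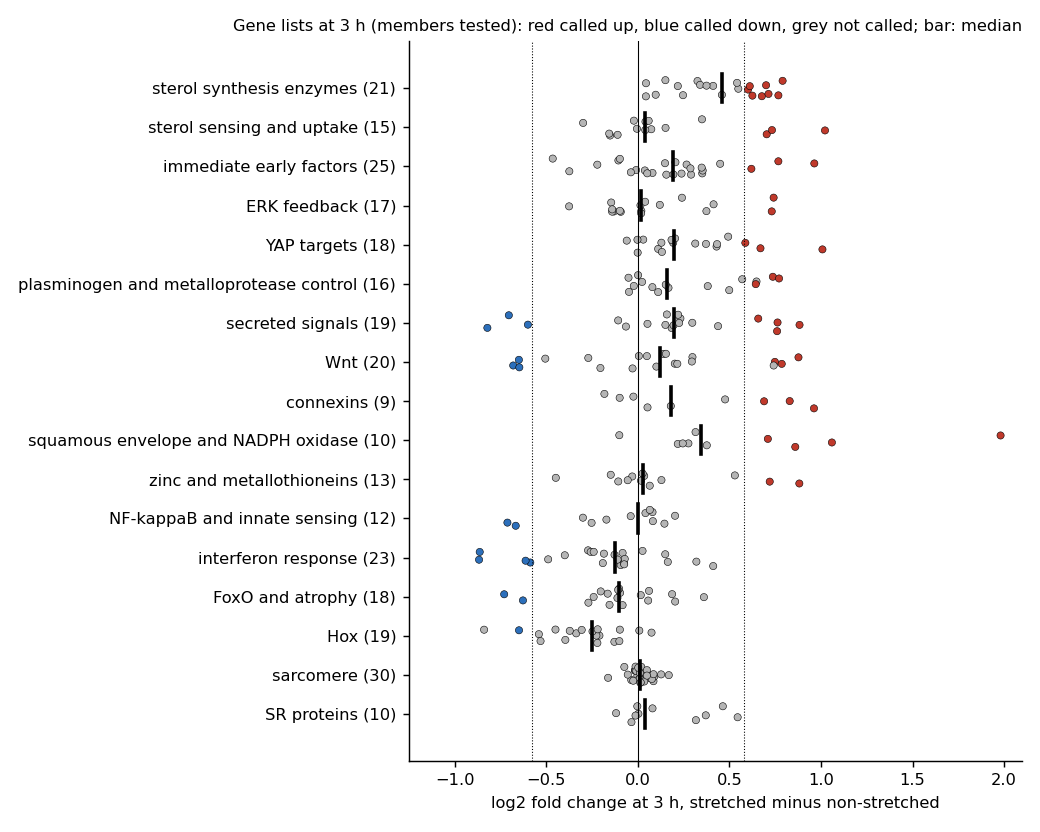
Log2 fold change at 3 h (horizontal) of each tested member of 17 gene lists (rows, with the number tested), coloured red where called up, blue where called down and grey where not called, with a bar at the median and dotted lines at 0.58 and -0.58. The sterol enzymes lie wholly to the right of 0, the Hox genes mostly to its left, and the 30 sarcomere genes within 0.17 of it.

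Some of the largest changes were in genes whose counts are uncertain or whose function is not known. 2210418O10Rik had at most 0.432 CPM in non-stretched libraries and between 4.47 and 11.6 CPM in stretched ones (log2 fold change 5.08 ± 0.44 (SE), adjusted p = 9.41e-05), but 100% of the 31-base stretches in its transcripts are shared with other genes. Gm14296 (-0.95 ± 0.26, adjusted p = 0.0262) shares 61.5% and Gsta2 (-0.99 ± 0.29, adjusted p = 0.0319), a glutathione transferase, 60.7%, and the call of Gm14296 was lost without non-stretched replicates 8, 9 or 10 (adjusted p up to 0.0575) and that of Gsta2 without non-stretched replicates 8 or 9 or stretched replicates 7 or 10 (adjusted p up to 0.0875). The same holds for 3 genes with large values and overlapping groups, named after their values were seen: Gm8325 (2.15 ± 0.44, adjusted p = 0.00651, 82.2% shared), Gm20431 (2.62 ± 0.74, adjusted p = 0.0288, 98.9%) and Pagr1a (-1.79 ± 0.58, adjusted p = 0.0484, 93.2%). Gm20431 lost its call without non-stretched replicates 8 or 10 or stretched replicates 7 or 9 (adjusted p up to 0.0798) and Pagr1a without non-stretched replicates 7, 9 or 10 or stretched replicates 7, 8 or 9 (adjusted p up to 0.133). Of the called genes with a biotype in GENCODE vM21, 100 of 131 called up (76.3%) and 94 of 107 called down (87.9%) were protein-coding, against 85.3% of the genes tested. The noncoding Gm26813 (mm10, chromosome 1, 59488480 to 59492605, minus strand) had 1.32, 1.13, 1.15 and 1.08 CPM in the non-stretched libraries and 2.81, 2.25, 2.13 and 2.57 CPM in the stretched libraries. Gm26813 changed by 1.06 ± 0.12 on the log2 scale (SE, adjusted p = 0.000382). It lies 1524 bases from Fzd7, a Wnt receptor gene on the other strand, which was at 0.037 ± 0.027 (adjusted p = 0.375). Gm43031 (chromosome 5, 4073571 to 4075457, plus strand) had 2.53, 2.24, 3.5 and 2.25 CPM in the non-stretched libraries and 5.42, 4.8, 5.88 and 5.23 CPM in the stretched libraries. Gm43031 changed by 1.02 ± 0.14 on the log2 scale (SE, adjusted p = 0.000797). It lies within the span of Akap9 on the same strand, which was at -0.062 (adjusted p = 0.693), and 5687 bases beyond the end of the sterol gene Cyp51, which was at 0.54 (adjusted p = 0.000712). Among coding genes of the largest decreases, Proser3 (-0.84 ± 0.091, adjusted p = 0.000268), Slc25a42 (-0.82 ± 0.10, adjusted p = 0.000512), a mitochondrial carrier of coenzyme A, and the phosphatase gene Ptpn22 (-0.77 ± 0.19, adjusted p = 0.0139) fell without overlap.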

How the data were processed

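RNA-seq of differentiated C2C12 cells, stretched or non-stretched for 3 h (4 libraries each), was analysed. The authors deposited estimated counts per gene symbol, in whole numbers, for 24 libraries of differentiated cells at 1 h, 3 h and 6 h; the submitters' processing notes name STAR, Salmon, DESeq2 and the mm10 build, without versions. The table of undifferentiated myoblasts was not used, and 0 columns of per-sample values were left out of the table used. Groups, replicate numbers and the codes B25 and B28 were taken from the sample titles.

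The deposited counts of the 8 libraries were scaled by TMM and filtered with filterByExpr in edgeR 4.0.16 (R 4.3.3, limma 3.58.1), which left 15513 of 47480 genes, and stretched and non-stretched cells were compared with glmQLFit and glmQLFTest and Benjamini-Hochberg adjustment. The prior count was 1. Calls required an adjusted p under 0.05 and a log2 fold change of 0.58 in size. Effects at 3 h were compared with those at 1 h and 6 h by contrasts in one model of the 24 libraries (16266 genes tested), and between the codes by an interaction term in the 8. Totals ran from 53916927 to 77080730 counts, and the genes of few counts are the least precise. Pairs of libraries within a group differed beyond sampling noise, with a chi-square per degree of freedom of 3.03 for non-stretched replicates 9 and 10 and 17.8 to 48.9 for the other pairs, so all were kept as separate samples. Scripts were tested on simulated data.

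Alternatives were DESeq2 1.42.0, RLE scaling, other count filters, all 24 libraries in one model, code or replicate number as a covariate, each code alone, a test against the fold threshold, no fold threshold and leaving out each library in turn. Named were the called or defining members of gene lists and, in each direction, the 12 calls of largest size whose mean reached 100 counts and whose groups did not overlap; a few genes that this rule named are not reported here. The members and lists were chosen with earlier results of these data known. Gene positions and shared 31-base stretches came from GENCODE vM21, and promoters from RefSeq (10949 of the symbols tested matched 10898 RefSeq genes, older symbols included).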

Additional observations from a re-analysis of the deposited data

Results flagged for a closer look

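Among 234 groups of 4 libraries (117 named genes in 2 groups at 3 h), 8 held a library that stood far from the other 3, where chance alone gives about 1 group in 20. Stretched replicate 8 had 14.27 CPM of Wnt4 against 17.37 to 17.57 in the others, and stretched replicate 10 had 3.126 CPM of Gm14296 and 1.805 CPM of Gm8325. Non-stretched replicate 7 had 3.887 CPM of Kcnk13 and 923.8 CPM of Myog, above the others, non-stretched replicate 9 had 5.784 CPM of Ikbke, above the others, and 58.68 CPM of Ahr, below them, and non-stretched replicate 8 had 47.22 CPM of Trim63, below the others.

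The effect of stretching at 3 h differed from that at 1 h in 47 of the 117 named genes. It was more positive at 3 h in 20, here as the log2 fold change at 3 h minus that at 1 h: Adamts16 1.18, Scel 1.17, Nfatc2 1.12, Gm43031 0.99, Insig1 0.97, Slc30a1 0.83, Stard4 0.82, Kcnk13 0.81, Hmgcs1 0.79, Sc5d 0.71, Mt2 0.70, Lss 0.67, Msmo1 0.65, Hsd17b7 0.65, Slc20a1 0.62, Mt1 0.61, Sqle 0.60, Wisp1 0.56, Mcc 0.51 and Mylip 0.45. It was more negative in 27: Cyp1a1 -4.06, Fosb -3.24, Fos -3.23, Egr1 -1.56, Ahrr -1.53, Cyr61 -1.52, Dkk2 -1.05, Arid5b -1.01, Cxcl5 -0.99, Pax5 -0.98, Six5 -0.94, Ptpn22 -0.93, Zfp808 -0.89, Trerf1 -0.88, Proser3 -0.87, Apc2 -0.84, Trps1 -0.83, Zfp934 -0.80, Zfp608 -0.77, Spice1 -0.73, Mamstr -0.73, Hoxa13 -0.70, Ddit4l -0.69, Ikbke -0.69, Arntl2 -0.65, Zfp395 -0.55 and Ednra -0.54. Mylip was lower in stretched cells at both times, by less at 3 h. Most of the genes in these lists were named because of their change at 3 h.

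It differed from that at 6 h in 41. It was more positive at 3 h in 23, as the log2 fold change at 3 h minus that at 6 h: 2210418O10Rik 7.90, Gm8325 3.10, Nfatc2 2.14, Adamts16 1.42, Gm26813 1.39, Hbegf 1.13, Tgm1 1.11, Wnt7b 1.01, Slc30a1 0.99, Errfi1 0.94, F2rl1 0.84, Tnfsf15 0.80, Gpr39 0.75, Plau 0.73, Duox2 0.70, Mcc 0.66, Timp3 0.64, Wnt4 0.63, Slc20a1 0.62, Fhl2 0.60, Ankrd1 0.57, Wisp1 0.54 and Ahr 0.49. It was more negative in 18: Gm14296 -1.89, Cd274 -1.06, Pax5 -1.02, Dkk2 -0.95, Ptpn22 -0.87, Proser3 -0.84, Slc25a42 -0.82, Nod2 -0.71, Spice1 -0.69, Trerf1 -0.67, Arid5b -0.66, Apc2 -0.64, Trps1 -0.63, Six5 -0.61, Ddit4l -0.60, Ikbke -0.53, Zfp395 -0.50 and Zfp608 -0.43.

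The effect at 3 h differed between the title codes B25 and B28 in 8 of the 117, in a test chosen after seeing the data. As the log2 fold change in B28 minus that in B25, it was more positive in B28 for Cyp1a1 4.90, Ahrr 1.90, Cyp1b1 1.19, Nkd2 0.80, Tiparp 0.53 and Egr1 0.43, and more negative for Acat2 -0.45 and Lss -0.31.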

How the results depend on the processing

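The counts of 138 genes called up and 115 called down stayed within 1.5 times their value under DESeq2 (99 and 90), RLE scaling, other count filters, the model of 24 libraries, the title code as covariate and each code alone. The genes behind these counts changed more than the counts. Of the 253 calls, 182 were called again under DESeq2, 148 in B25 alone and 114 in B28 alone. Without the fold threshold the counts were 1676 and 1767, with 17 sterol enzymes. Against the fold threshold itself (glmTreat) they were 1 and 0, with 0 sterol enzymes, the 1 being 2210418O10Rik. A call thus means a difference from 0 with an estimate past the threshold. Apart from 2210418O10Rik, no gene was shown to change by more than 1.5 times. In B28 alone 4 sterol enzymes were called, with the other 4 at 0.40 to 0.54. Leaving out 1 library gave 106 to 153 genes up, 86 to 134 down, 5 to 10 sterol enzymes, 583 to 1330 genes differing from 1 h (583 without non-stretched replicate 7 at 3 h, 1330 without stretched replicate 4 at 1 h) and 1474 to 1961 from 6 h; the cause was not tested. With the code as a covariate 1746 and 3102 genes differed from 1 h and 6 h, against 838 and 1952. In B28 alone Cyp1b1 showed no detectable change (0.0013 ± 0.046 (SE), adjusted p = 0.99).

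Whether replicate numbers pair the cultures is not settled here. Deviations of same-numbered libraries correlated at 0.12, 0.0715, -0.045 and 0.0412. Non-stretched replicates 7 and 8 correlated most with the stretched library of their own number. Non-stretched replicate 9 correlated most with stretched replicate 10 (0.0687), and non-stretched replicate 10 with stretched replicate 9 (0.0967). Correlations this weak cannot exclude pairing. With a replicate block 140 genes were called up and 112 down, and 1560 and 2952 differed from 1 h and 6 h. Of 90 named calls the block lost 5 (Cxcl1, Ahrr, Cyp1b1, Zfp934, Aldh3a1), DESeq2 3 (Cyp1b1, Gm20431, Pagr1a), the 24-library model 11, B25 alone 14, B28 alone 35 and glmTreat 89. The 11 were Atf3, Fosb, Ctgf, Ptgs2, Cxcl1, Nkd2, Gjb2, Gsta2, Gm14296, Aldh3a1 and Gm20431. In all, 56 of the 90 were called whichever 1 library was left out. Genes with a mean under 100 counts were 23.3% of those tested, 48.6% of those called up and 55.7% of those called down.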
